A study of Mus musculus with 10 samples.

Results

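Cxcr4 and its ligand Cxcl12 were followed in isolated mouse ureteric buds that were cultured with GDNF or without it. Members were the probe sets that the authors' deposited comparison tables assign to either gene, by symbol and Entrez identifier. This gave 3 of 35178 probe sets, and 2 of the 634 genes that the tables name. Cxcr4 had 1 probe set on each array type, 102794_at on U74Av2 and 1448710_at on 430A. Cxcl12 had 1, 162234_f_at on U74Av2. No probe set in the authors' 430A list of changed probe sets was named for it, so its level there was not analysed here. A Cxcl12 probe set on 430A that missed the authors' selection would carry no name. All 3 member probe sets passed the filter on low values. Those of Cxcr4 passed only through their arrays with GDNF, so passing adds no support. The tables list 2.19% of U74Av2 probe sets as higher and 0.312% as lower, and 2.39% and 0.665% of 430A probe sets. They hold only probe sets that the authors had selected for a change with GDNF on these same arrays, so each difference below had to be present for the probe set to carry a name.

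The series comprised 10 arrays of ureteric buds from E11.5 embryos of the Swiss Webster strain. They were held in Matrigel, a basement membrane gel. On each of 2 Affymetrix array types, U74Av2 and 430A, 3 arrays carried buds given 100 ng/mL GDNF (plus GDNF) and 2 carried buds cultured without it (minus GDNF), with a culture time of 16 h in either group. GDNF is the growth factor that activates the receptor tyrosine kinase Ret in the bud. An array held RNA from about 5 to 6 batches of 30 to 40 buds, so a value is an average over many embryos and the spread between arrays is a spread between pools. The buds were cultured without the mesenchyme that normally surrounds them. In such pooled samples, a change in RNA per cell and a change in the number of expressing cells cannot be told apart.

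Cxcr4 is a G protein-coupled receptor on the cell surface. Its ligand Cxcl12, also called SDF-1, is a secreted chemokine that guides migrating cells toward its source and acts mainly through Gi proteins. The pair is known for its part in blood cell homing, germ cell migration and the growth of blood vessels, and mice that lack either gene form abnormal kidney vessels.

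The bases just before each gene's start are shown because the ETS transcription factors Etv4 and Etv5 were among the genes higher with GDNF. The member probe sets had higher means with GDNF too, but neither gene passed the test on a type alone. Whether ETS factors control either gene was not tested. Sequences are those of RefSeq on GRCm38.p6, which held both members, given 5′ to 3′ and ending at the base before the start. Capitals mark the ETS core GGAA, read on either strand (TTCC where it lies on the other).
Cxcr4, chr1:128592300-128592549, minus strand: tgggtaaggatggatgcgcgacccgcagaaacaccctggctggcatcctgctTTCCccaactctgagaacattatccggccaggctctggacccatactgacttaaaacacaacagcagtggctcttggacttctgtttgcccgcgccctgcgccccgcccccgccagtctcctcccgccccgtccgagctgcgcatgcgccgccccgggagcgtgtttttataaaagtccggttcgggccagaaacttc
Cxcl12, chr6:117168285-117168534, plus strand: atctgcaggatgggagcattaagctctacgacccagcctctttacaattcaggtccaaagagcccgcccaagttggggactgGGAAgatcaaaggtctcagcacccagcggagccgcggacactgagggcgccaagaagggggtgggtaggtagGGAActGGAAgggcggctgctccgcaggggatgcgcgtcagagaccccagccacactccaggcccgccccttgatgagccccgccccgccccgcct

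The Cxcr4 stretch held 1 GGAA core, at -198 to -195 from the start, and the Cxcl12 stretch held 3. Of 32851 RefSeq promoter stretches of the same 250 bases, 93.4% held that core at least once, with a median of 3. The longer ETS motif CCGGAAG was in neither stretch and in 6.91% of all. GC boxes (GGGCGG, either strand) numbered 3 before Cxcr4 and 5 before Cxcl12, and 32.7% of stretches had at least 1. A TATA box (TATAAA, either strand) was found before Cxcr4, overlapping itself on the opposite strand, but not before Cxcl12, and 12.4% of stretches had one. These are matches of letters. No binding was measured.

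Plus sample 3 and minus sample 2 stood apart from the other arrays on both types in the ratio of 3′ to 5′ Gapdh signal, a sign of RNA quality. On U74Av2 the ratio was 1.22, 1.06 and 1.46 on plus arrays 1 to 3, and 1.10 and 1.60 on minus arrays 1 and 2. On 430A it was 1.19, 1.12 and 1.52 on the plus arrays, and 1.09 and 1.74 on the minus arrays. The changes of Cxcr4 and Cxcl12 are therefore also given with these 2 samples left out, and the other results are not. Median intensities lay between 211 and 248 on U74Av2 and between 281 and 321 on 430A, and precision is limited by the few arrays.

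The comparison asked whether the receptor and its ligand changed when the bud was given GDNF. Cxcr4 was near the bottom of the intensity range without GDNF and clearly measured with it, on both array types. In a fit over both types it rose by a log2 of at least 2.01, number 3 in the order of floored changes among the 184 genes named on both. The Cxcl12 probe set was measured in both groups and was 1.59-fold higher with GDNF on U74Av2, a difference that did not pass the test.

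On U74Av2, Cxcr4 had deposited intensities of 315, 384 and 176 with GDNF, against 22.5 and 18.9 without. The lowest plus array was 7.81 times the highest minus array, and the groups did not overlap. Its mean was 292 ± 106 (SD, n = 3) for plus GDNF, against 20.7 ± 2.57 (SD, n = 2) for minus GDNF. On 430A, the intensities were 645, 586 and 425 with GDNF, against 114 and 99.2 without. There the lowest plus array was 3.71 times the highest minus array, again with no overlap. Its mean was 552 ± 114 (SD, n = 3) for plus GDNF, against 107 ± 10.8 (SD, n = 2) for minus GDNF.

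Plus array 3 was the lowest plus array for Cxcr4 on both types, and minus array 2 the lower minus array. These are the arrays with the higher 3′ to 5′ ratios. The highest plus array was 2.18 times the lowest on U74Av2 and 1.52 times on 430A. Of the 163 genes named on both types and higher with GDNF, plus array 3 was the lowest plus array on both types for 51 (31.3%), so Cxcr4 shared this order with many other genes.

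**Figure D1:**
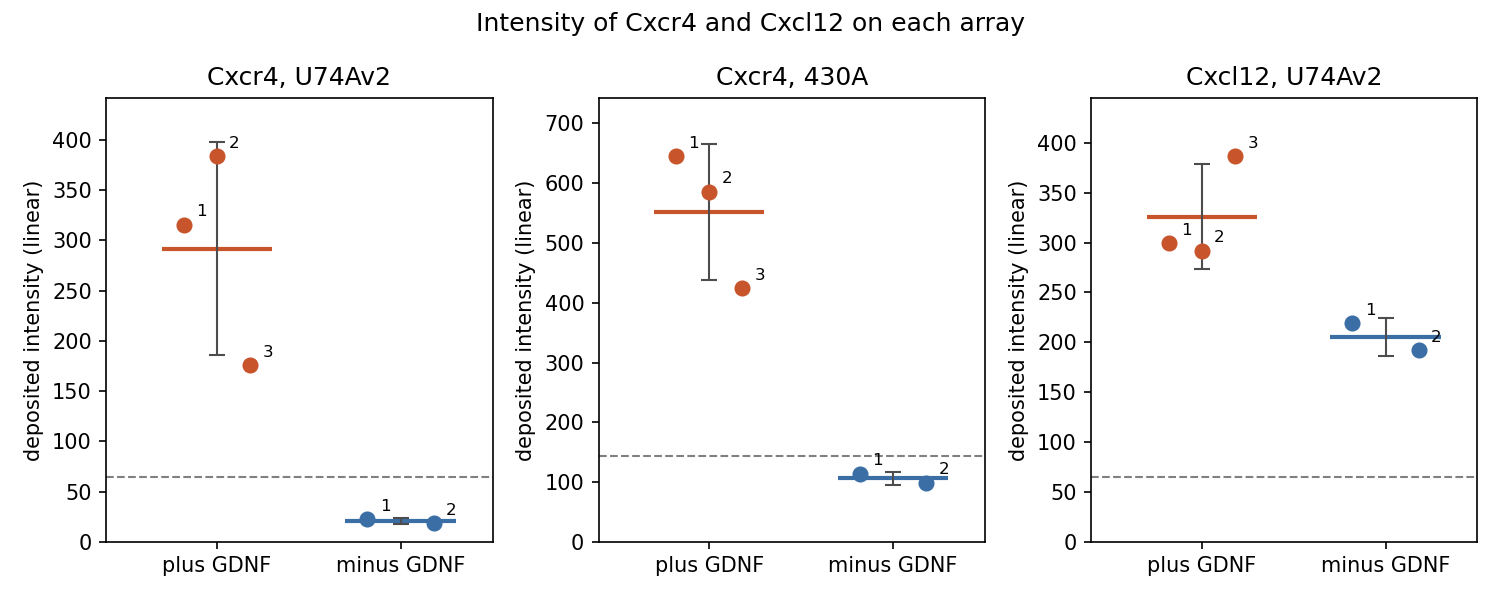
Deposited intensity (linear scale) of the Cxcr4 probe sets on U74Av2 and 430A and of the Cxcl12 probe set on U74Av2. Points are arrays with their sample numbers, thick lines group means, bars 1 SD (n = 3 plus GDNF, n = 2 minus GDNF), and the dashed line the intensity floor. Both minus arrays of Cxcr4 lie below the floor on each type, and all Cxcl12 arrays lie above it.

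For testing, intensities under the 20th percentile of a table were raised to it before taking log2. This floor was 65.0 on U74Av2 and 143 on 430A. Both minus arrays of Cxcr4 lay below the floor on each type, so its fold is a lower bound. Raised to the floor, the 2 minus values are equal, so only the plus arrays show a spread. The SEs and limma p-values of Cxcr4 at this floor may therefore be too small. Cxcr4 was at least 4.27-fold higher with GDNF on U74Av2 (log2 at least 2.09, moderated SE 0.34) and at least 3.79-fold higher on 430A (log2 at least 1.92, SE 0.19). In the order of floored folds over all probe sets tested, it was number 3 of 10588 on U74Av2 and number 4 of 19521 on 430A, which are ranks among values that include other lower bounds. In that order Etv5, an ETS transcription factor, stood next above Cxcr4 among the 661 named probe sets of 430A (log2 at least 1.97, SE 0.30). Both minus arrays of Etv5 were at the floor too, so which of the genes changed more is not settled. Spry1, an inhibitor of receptor tyrosine kinase signalling, stood just below it (log2 1.71 ± 0.18). On U74Av2 the named gene just below was Arg2, the mitochondrial arginase (log2 2.00 ± 0.15).

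Tested on each type alone in limma, Cxcr4 missed the threshold of an adjusted p of 0.05, narrowly on 430A (adjusted p = 0.054) and by more on U74Av2 (adjusted p = 0.16). At that threshold limma called 1 of 10588 probe sets on U74Av2 (0.00944%) and 0 of 19521 on 430A (0%). An unadjusted p under 0.05 was found for 931 (8.79%) and 2588 (13.3%). The unadjusted p of Cxcr4 was 7.8e-04 on U74Av2 and 5.4e-05 on 430A. It ranked 53 and 18 by p among all probe sets of these types. An exact two-sided permutation test of either type gave p = 0.10, the smallest that 3 against 2 arrays allow. With the groups permuted within each type and both types combined, the exact p was 0.01, again the smallest possible of 100 arrangements. Those arrangements treat the arrays of the 2 types as independent, which is not settled, so this permutation p may be too small. The authors' selection for a change between these groups also favoured the smallest p.

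Over both types, limma gave Cxcr4 an adjusted p of 1.1e-04 (SE 0.19), counting 10588 tests. Of the 184 genes in that fit, 162 passed as higher (88%) and 21 as lower (11.4%), so passing sets Cxcr4 apart from few of them. Those genes and the variance learned from them come from the authors' selection. Each array had its own pool per the series text, yet same-named arrays of the 2 types deviated together over the 184 genes (r between 0.41 and 0.59). This p may therefore be too small. With same-named arrays averaged to 5 samples the adjusted p was 1.2e-04. The 430A change minus the U74Av2 change was -0.17 ± 0.38 SE in log2, which limma did not call (adjusted p = 0.93). The floor cuts off the lower group on both types, so this difference says little about the uncut folds.

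The size of the Cxcr4 change depended on where the floor was set. A floor at the 10th percentile gave a log2 change of at least 3.07 on U74Av2 (adjusted p = 0.080). On 430A that floor was 96.8, below both minus arrays of Cxcr4, so the change of 2.35 there was not a bound. Cxcr4 then passed on 430A (adjusted p = 0.045). A floor at the 40th percentile made the log2 change at least 0.79 on U74Av2 (adjusted p = 0.48) and at least 1.21 on 430A (adjusted p = 0.095). Over both types it was at least 2.71 with the lower of these floors (limma adjusted p = 5.3e-05) and at least 1.00 with the higher (adjusted p = 0.00996). With plus sample 3 and minus sample 2 left out, it was at least 2.42 on U74Av2 and at least 2.10 on 430A, with adjusted p = 0.27 and 0.23 at these few arrays. Over both types without those samples the log2 change was at least 2.26 (adjusted p = 5.2e-04).

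**Figure D2:**
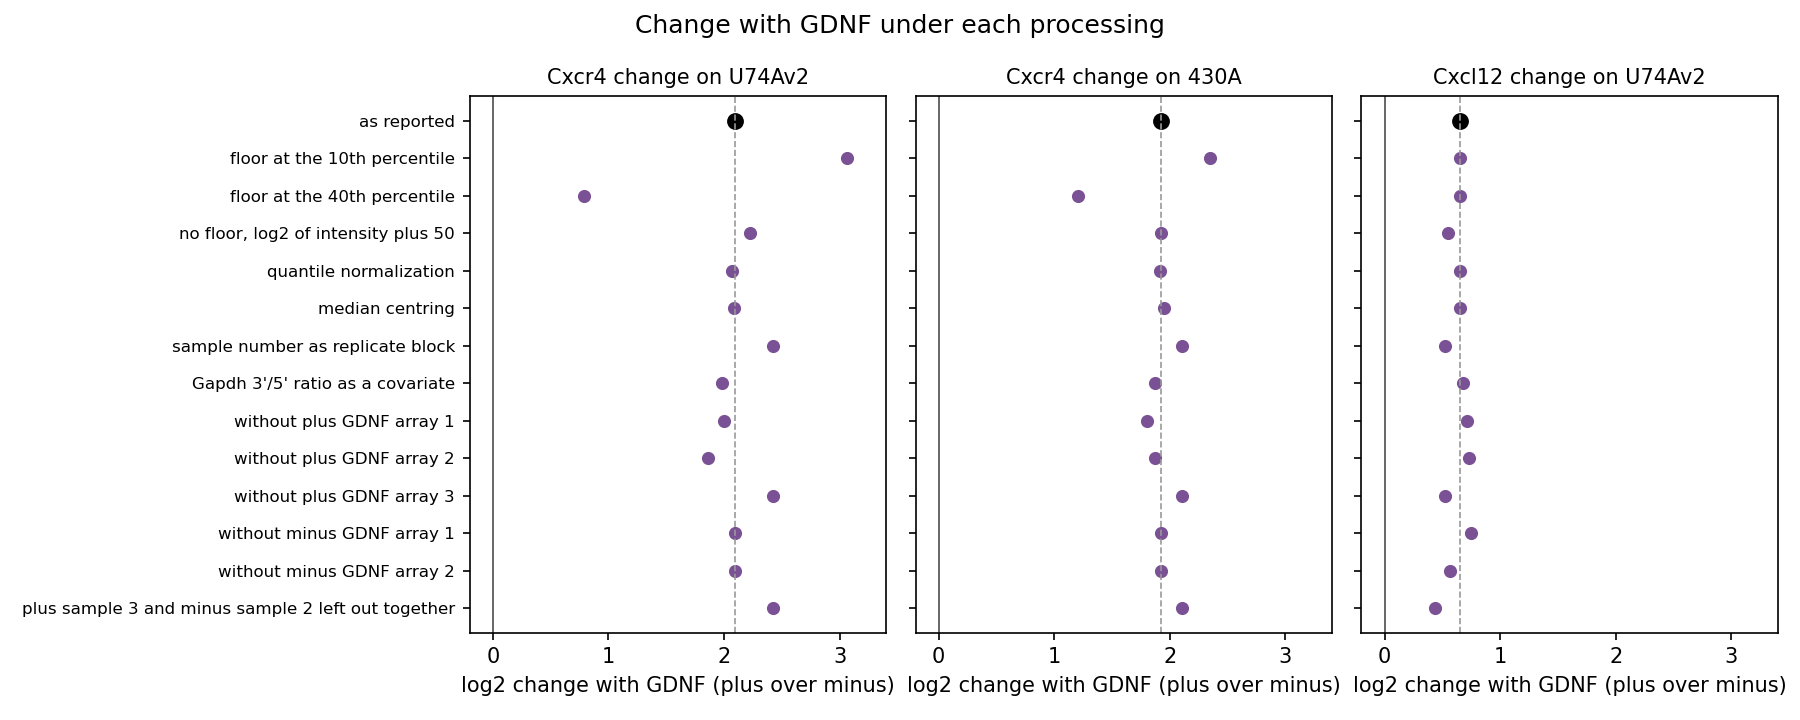
Log2 change with GDNF (plus over minus, horizontal axis) of Cxcr4 on each array type and of Cxcl12 on U74Av2 as reported (black) and under the processing named at the left (purple), with the reported value as a dashed line. The values for Cxcr4 run from 0.79 to 3.07 on U74Av2 and from 1.21 to 2.35 on 430A, those for Cxcl12 from 0.43 to 0.75, and all lie above 0.

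The authors' deposited table for U74Av2 gives Cxcr4 a 14.8-fold rise, with bounds of 8.42 and 22.8. The authors' deposited table for 430A gives it 5.17-fold, with bounds of 3.87 and 6.95. Those folds use intensities below the floor. In the authors' deposited table for 430A the lower bound of Cxcr4 was the highest of the 542 probe sets listed as higher. In the authors' deposited table for U74Av2 it was the second highest of 273. The ratio of means of the deposited intensities was 5.17 on 430A, as in the authors' deposited table, but 14.1 on U74Av2. There the authors' deposited table has a plus GDNF mean of 311, against 292 from the intensities of the 3 arrays, so the means behind that table are not plain averages of the deposited values.

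Cxcl12, the ligand, had intensities of 299, 292 and 387 with GDNF on U74Av2, against 219 and 192 without. The groups did not overlap, but the lowest plus array was only 1.33 times the highest minus array. Its mean was 326 ± 52.9 (SD, n = 3) for plus GDNF, against 205 ± 19.0 (SD, n = 2) for minus GDNF. All 5 arrays lay above the floor, so this fold is not a bound. Limma gave a log2 change of 0.66 ± 0.18 SE (unadjusted p = 0.012, adjusted p = 0.34), which did not pass. The exact permutation p was 0.10, the smallest possible.

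On U74Av2, 17.3% of the probe sets tested were higher with GDNF with no overlap between the groups, and 14.9% were on 430A. The 3 member probe sets had this property. Since the authors' selection favours it, nothing is read from that count. In the order of floored fold among 292 named U74Av2 probe sets, Cxcl12 was number 200, between Bola2 (log2 0.66 ± 0.16) and Cdca7, a Myc target of dividing cells (log2 0.66 ± 0.17). Cxcr4 was number 3 in the same order.

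The arrays with the highest Cxcr4 were not those with the highest Cxcl12. Plus array 3 had the lowest Cxcr4 of the plus arrays on U74Av2 and the highest Cxcl12. Over the 5 U74Av2 arrays the 2 genes had a Pearson correlation of 0.71, given as a description, since the points differ in group. Without plus sample 3 and minus sample 2 the log2 change of Cxcl12 was 0.43 (adjusted p = 0.61), against 0.66 with all arrays. Its probe set name ends in _f_at, the suffix by which Affymetrix marks probes shared with similar sequences, so signal from related transcripts cannot be told apart from that of Cxcl12.

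The authors' deposited table for U74Av2 lists Cxcl12 at 1.58-fold, with bounds of 1.26 and 2 and a difference of means of 125. The study's filter asked for a lower bound over 1.2 and a difference over 100. In the authors' deposited table, 65 of the 273 higher probe sets had a lower bound no larger than that of Cxcl12, and 22 had a difference no larger. For Cxcr4 on U74Av2 these counts were 272 and 137 of the same 273. Cxcr4 was thus near the top by lower bound and near the middle by difference, and Cxcl12 was close to both limits.

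**Figure D3:**
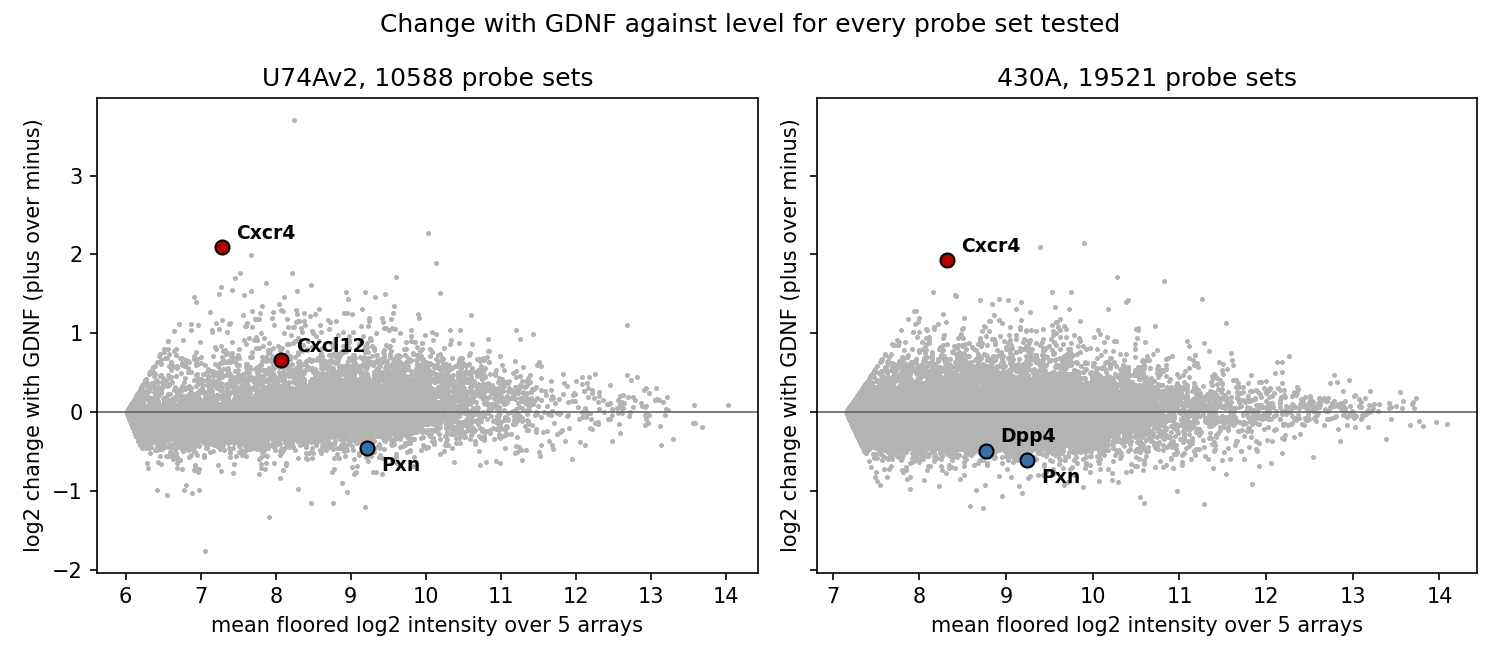
Log2 change with GDNF (plus over minus, vertical axis) against the mean floored log2 intensity over 5 arrays, for the 10588 probe sets tested on U74Av2 and the 19521 on 430A (grey). Red points mark Cxcr4 and Cxcl12 and blue points Dpp4 and Pxn. Cxcr4 lies at the upper edge on both types, Cxcl12 at 0.66, and Dpp4 and Pxn below 0.

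Other genes of the pathway were taken from a list of 57 ligands, receptors, G proteins, arrestins, kinases and cytoskeletal adaptors of Cxcr4 signalling. Of these, 3 were named on U74Av2 (Cxcr4 and Cxcl12 higher, Pxn lower) and 3 on 430A (Cxcr4 higher, Dpp4 and Pxn lower). None passed the test on a type alone. The median log2 change of these 3 genes on U74Av2 was 0.66, the value of Cxcl12 itself. Over all named genes (1 probe set each) it was 0.78, and over all probe sets tested -0.04. On 430A the median of the 3 was -0.49, the value of Dpp4, against 0.60 over all named genes and -0.07 over all tested. With 3 genes a type, members among them, these medians do not summarise the pathway. Since a name requires listing as changed, the named genes are the closer comparison. Of a second list of 52 other chemokines and chemokine receptors, 0 were named on either type. The alternative Cxcl12 receptor Ackr3, the G proteins and the arrestins carried no name in the tables and are left unanalysed here.

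Dpp4 is a cell surface peptidase that trims and inactivates Cxcl12. On 430A its intensities were 361, 388 and 392 with GDNF, against 531 and 538 without. The groups did not overlap, and 14.9% of probe sets were lower with GDNF in this way. Its log2 change was -0.49 ± 0.09 SE (limma adjusted p = 0.12), so it did not pass.

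Pxn encodes paxillin, a focal adhesion adaptor that is phosphorylated downstream of Cxcr4 in migrating blood cells. On U74Av2 its intensities were 541, 506 and 520 with GDNF, against 730 and 702 without. On 430A they were 514, 541 and 476 with GDNF, against 823 and 730 without. For U74Av2 the authors' deposited table has Pxn means of 320 with GDNF and 471 without. The deposited intensities there average 522 and 716, and the source of this gap was not tested. The groups did not overlap on either type, and 4.92% of U74Av2 and 14.9% of 430A probe sets were lower with GDNF in this way. The log2 change was -0.46 ± 0.13 SE on U74Av2 (limma adjusted p = 0.36) and -0.61 ± 0.11 SE on 430A (adjusted p = 0.11). Over both types Pxn fell by 0.53 ± 0.09 SE on the log2 scale (limma adjusted p = 0.0036). Every gene lower in that fit passed, 21 of 184, so passing does not set Pxn apart. Dpp4 and Pxn, like the members, were named only because the authors had listed them as changed.

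The core GDNF/Ret list of 13 genes, chosen in part from what is known of these samples, had 7 members named on U74Av2 and 9 on 430A. All were higher with GDNF. Limma called 1 of them on U74Av2, the bud tip signal Wnt11 (log2 at least 3.71), and 0 on 430A. There Wnt11 stood at 1.04 ± 0.23 SE (adjusted p = 0.16). Of the 184 genes in the fit over both types, limma called 1 change as different between the types, that of Wnt11 (adjusted p = 1.7e-04). The median floored log2 change was 1.77 on U74Av2 and 1.49 on 430A. The floor cut the minus GDNF values of Wnt11 and Myb on U74Av2 and of Etv5 and Myb on 430A, so these folds are lower bounds like that of Cxcr4. Both minus arrays of Wnt11 lay at the floor on U74Av2, and neither did on 430A. Its limma p-values on U74Av2 and for the difference between types may therefore be too small. Wnt11 passed the filter on U74Av2 only through its plus arrays, so passing adds no support. On U74Av2 the ETS factor Etv4 stood at 1.53 ± 0.20 SE and Myb, with 1 of 2 minus arrays at the floor, at no less than 1.45 (SE 0.23). Ret, the GDNF receptor, was singled out after its values were seen and stood at 1.77 ± 0.36 SE on U74Av2 and 1.49 ± 0.30 SE on 430A. Whether Cxcr4 differed from these genes in its change was not tested.

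**Figure D4:**
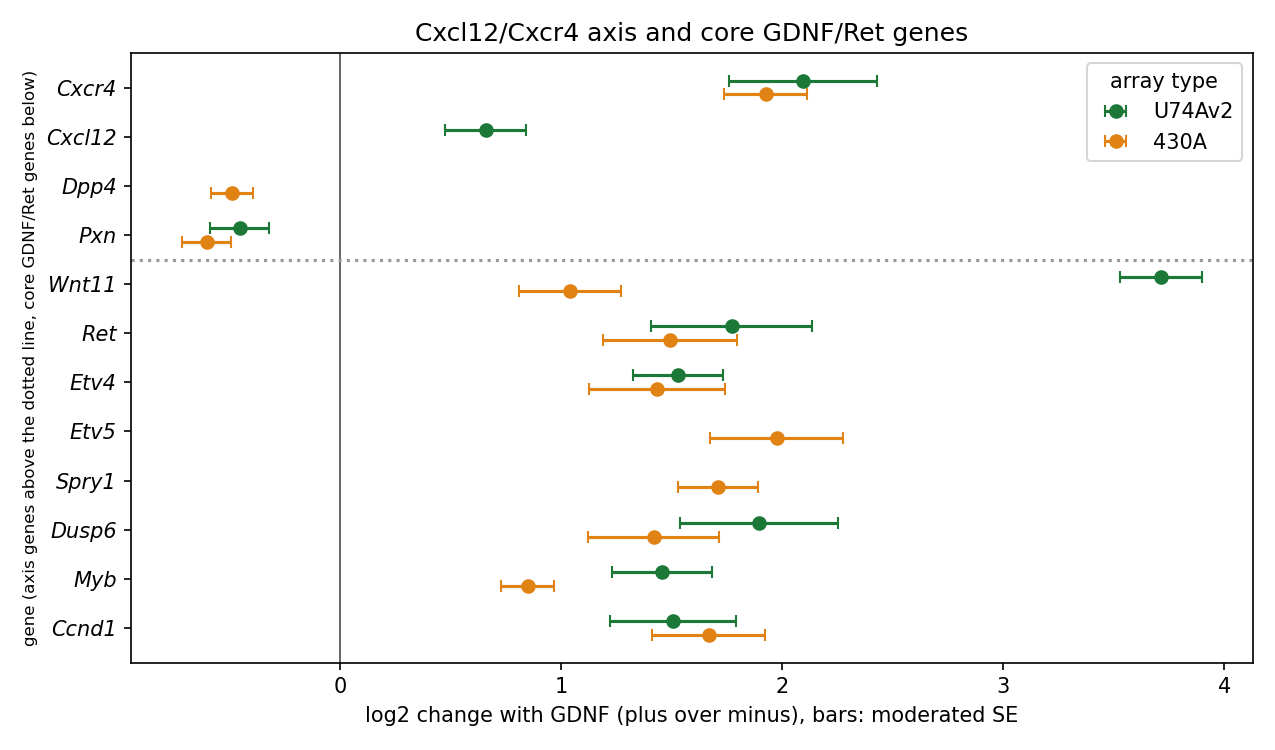
Log2 change with GDNF (plus over minus, horizontal axis) of the Cxcl12/Cxcr4 axis genes and of core GDNF/Ret genes on U74Av2 (green) and 430A (orange), with moderated standard errors as bars. Cxcr4 and Etv5, and Wnt11 on U74Av2, are lower bounds, as both minus arrays lie at the floor, and 1 minus array of Myb does on each type. Dpp4 and Pxn lie below 0, while Cxcl12, Dpp4, Etv5 and Spry1 each have a value on 1 type only.

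Genes with a pattern like that of Cxcr4 were ranked by the Pearson correlation of floored log2 intensity with Cxcr4 within each type, averaged over the types (10 arrays, 183 genes). The highest was Myb, a transcription factor of progenitor cells, with r of 1.00 on U74Av2 and 0.97 on 430A. It was followed by Ctnnd2, a catenin of the cadherin complex (0.97 and 0.99), Plk4, the kinase of centriole duplication (0.98 and 0.98), and Nop56 of ribosomal RNA processing (0.98 and 0.98). The receptor tyrosine kinase Kit also came among the first 6 (0.99 and 0.96). The most opposite were the serine protease Tmprss2 (-0.99 and -0.99) and the adhesion molecule Ncam1 (-0.97 and -0.98).

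Such values are common here. Of the 183 genes, 127 had a mean r over 0.9, and the points share their arrays. All were named because the authors had selected them for a change between these same groups. An r of large size with Cxcr4, of either sign, was thus favoured in advance. By Spearman correlation 2 of the first 6 genes stayed among the first 6, and with the floor at the 40th percentile 1 did. Within U74Av2 alone, the probe sets most like Cxcr4 were those of Myb, Kit, 1 of the cyclin D1 probe sets (Ccnd1, r = 0.99) and carbonic anhydrase Car2 (0.98). Within 430A alone they were those of Pus7, a pseudouridine synthase (1.00), D17H6S56E-5 (1.00), Ska1 of the spindle and kinetochore (1.00) and the deoxycytidine kinase Dck (1.00). Those most like Cxcl12 on U74Av2 were the RNA-binding protein Hnrnpa1, the importin Ipo5, the phospholipase Pla2g12a and Wwc1, each with r of 0.99.

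**Figure D5:**
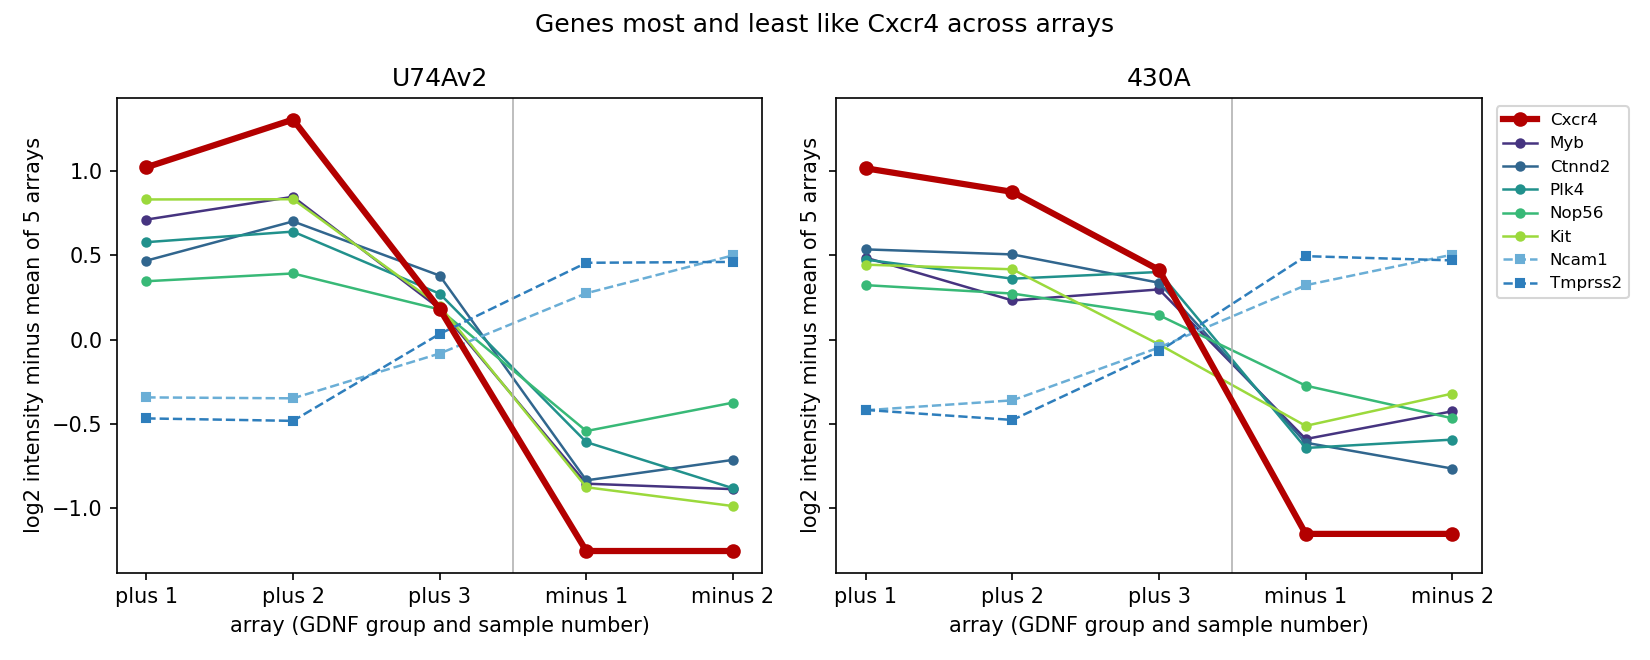
Floored log2 intensity minus the mean of the 5 arrays of a type (vertical axis) for Cxcr4 (thick red), 5 of the genes most like it (solid) and the 2 most unlike it (dashed), by array. Cxcr4 is flat across both minus arrays because they lie at the floor, and plus array 3 is the lowest plus array of Cxcr4 on both types.

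Cells other than bud epithelium can carry either gene. Cxcr4 is known from endothelium and blood cells, and Cxcl12 from stroma. No gene of a list of 13 endothelial or of 19 blood and macrophage markers was named on either type, so their levels were not analysed here. On 430A, 3 of 20 stromal markers were named, Postn, Tcf21 and Vim. Their summed intensity lay between 1464 and 2018 with GDNF and between 2796 and 2798 without. On U74Av2, 1 was named, Acta2, with 399 to 513 with GDNF and 507 to 705 without. The mesenchymal markers Cdh11 and Cited1, 2 of 17, summed to between 710 and 852 with GDNF on 430A, against 1122 to 1130 without. None of these markers was at 0 and none passed the test. Their part in the Cxcr4 and Cxcl12 results was not tested. Of 18 bud epithelium markers, 2 were named on U74Av2 (Ret and Calb1, both higher) and 6 on 430A (3 higher, 3 lower), none at 0. On 430A the higher markers were Ret (log2 1.49), Calb1 (0.72) and Lhx1 (0.64). The lower markers there were Cdh16 (-0.92), Npnt (-0.77) and Krt8 (-0.52).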

How the data were processed

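Linear intensity values, 1 per array and probe set, were deposited by the authors for 12488 probe sets on U74Av2 and 22690 on 430A. How they were scaled is not given in the sources used here. Per the series text, groups were compared in dChip 1.3. The authors' deposited comparison tables hold group means, signed fold changes with bounds (unit score, since falls carry a minus sign) and differences, for 312 and 693 probe sets that passed their filter. Probe sets with exactly 1 gene (292 and 661) were named through Entrez identifiers and the RefSeq gene table of GRCm38.p6, and all others are unnamed here.

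Here, values below the 20th percentile of each table were set to it, log2 was taken, and control probe sets (66 and 64) and those with all 5 arrays at the floor (1834 and 3105) were removed. Each type was fitted in limma 3.58.1 under R 4.3.3 (two-sided, Benjamini-Hochberg over all probe sets of the type). Adjusted p-values without another test's name are limma's. The fit over both types had array type as a term. The limma code was tested on simulated data. Named genes were the members, listed pathway genes, neighbours in fold and the genes most and least like Cxcr4. Among the genes that this rule names, 2 are not reported here. Members and lists were chosen with earlier results of these data known. Alternatives were floors, scalings, variance models, a replicate block, arrays left out and, added after the data were seen, the Gapdh ratio as a covariate and 2 samples left out together. The number of arrays limits the precision.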

Additional observations from a re-analysis of the deposited data

How the results depend on the processing

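The changes of Cxcr4 on U74Av2, of Cxcr4 on 430A, of Cxcl12 on U74Av2 and of Cxcr4 over both types stayed positive under every alternative run. Cxcr4 on 430A passed the threshold with the floor at the 10th percentile (log2 2.35), without a floor and 50 added (1.92, adjusted p = 0.017), among probe sets above the median level (1.92, adjusted p = 0.018, a filter that Cxcr4 passes only through its plus arrays, so this call adds no support), with a trended robust variance (1.92, adjusted p = 0.042) and with the Gapdh ratio as a covariate (1.87, adjusted p = 0.038). On U74Av2 it passed with that covariate alone (1.99, adjusted p = 0.017). Leaving out 1 array at a time gave log2 changes of 1.86 to 2.42 for Cxcr4 on U74Av2, 1.80 to 2.10 on 430A (adjusted p 0.090 to 0.30), 1.89 to 2.15 over both types and 0.53 to 0.75 for Cxcl12. A lone minus array was then assumed to vary like the plus arrays. The difference between types changed sign with the floor at the 40th percentile (0.42, adjusted p = 0.83), and ran from -0.50 to 0.065 with 1 array left out, positive without plus array 2 of U74Av2 (0.065) or plus array 3 of 430A (0.0083). It passed in none.

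Probe sets called on U74Av2 numbered 1 as reported, 0 to 1 with 1 array left out, 0 with the floor at the 40th percentile or with plus sample 3 and minus sample 2 left out, 3 with a trended robust variance, 4 without a floor, 5 above the median level, 5 at an adjusted p under 0.1 and 267 with the Gapdh covariate. On 430A they numbered 0 as reported, 30 with the floor at the 10th percentile, 48 with the trended variance, 152 without a floor, 152 above the median level, 198 at an adjusted p under 0.1 and 166 with the covariate. Of the 6 genes most like Cxcr4, 2 stayed by Spearman correlation and 1 with the higher floor. The causes were not tested. The filter at the median level removed Cxcr4 on U74Av2, so it gave no value there or over both types. Each member had 1 probe set, so averaging over probe sets was not run per type.

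With sample number as a replicate block, Cxcr4 stood at log2 2.42 on U74Av2 (adjusted p = 0.35), 2.10 on 430A (adjusted p = 0.42) and 2.26 over both types, and Cxcl12 at 0.53 (adjusted p = 0.95). The block changed no call. Same-numbered plus and minus arrays did not deviate together (correlations of 0.16 and -0.70 on U74Av2, -0.02 and -0.62 on 430A). With 2 minus arrays a type, their deviations mirror each other, so these correlations cannot decide whether the samples were paired. The numbers were not taken as pairs because the sample titles do not state a pairing. At the reported floor, signal limits the Cxcr4 fold to a lower bound, since both minus values lie below it on each type.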
